A study of Mus musculus with 12 samples.

Results

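The genes described here encode the proteasome: its subunits, its activators, its inhibitor and the chaperones that assemble it. Members were all probes whose gene symbol begins with Psma to Psmg followed by a number, without the immunosubunits Psmb8 and Psmb9. This gave 62 probes of 45 symbols out of 24613 probes on the array. A probe was kept where all arrays of 1 or more groups detected it (detection p-value under 0.05), and 53 member probes of 42 symbols passed, among 10935 kept probes of 8068 genes. The core particle (Psma and Psmb genes) kept 17 of 21 probes and 14 of 16 genes, and the regulatory particle with the activators (Psmc, Psmd and Psme genes) kept 31 of 35 probes and all 23 genes. The inhibitor and core chaperones (Psmf and Psmg genes) kept 3 of 4 probes. The remaining 2 kept probes, of Psmc3ip and Psme3ip1, matched by name only and are not counted with the subunits.

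The cultures were primary astrocytes from the cerebral cortex of SAMP8 mice, an inbred strain prone to accelerated senescence, and of SAMR1 mice, its senescence-resistant control. All were prepared from pups of 2 days, grown for 21 days and then given a medium with 10% heat-inactivated rat serum for 48 h. The serum came from rats under caloric restriction (CR) or fed ad libitum (AL). The 4 groups, SAMP8-CR, SAMP8-AL, SAMR1-CR and SAMR1-AL, held 3 cultures each. Serum of another species stood in for the diet of the mouse. By the study's methods, a minority of the cells in established cultures of both strains were microglia.

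The proteasome degrades proteins that carry ubiquitin chains. Its core is a barrel of alpha and beta rings in which Psmb5, Psmb6 and Psmb7 carry the proteolytic sites. The regulatory particle on its ends binds ubiquitin, unfolds the substrate with a ring of ATPases (Psmc1 to Psmc6) and removes the ubiquitin through its lid. In cells exposed to interferon, Psmb8, Psmb9 and Psmb10 replace the constitutive catalytic subunits, and Psme1 with Psme2 form an activator that caps the core.

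Between 41.2% and 46.7% of all probes were detected per array, and with so few arrays their number sets the precision. The lowest intensity on an array lay between 40.1 and 42.9 in replicates 2 and 3 of SAMP8-CR and of SAMP8-AL and between 7.01 and 8.19 in the remaining 8. The labels are silent on this split, and the 4 and the 8 samples are called the second and the first array set. The second set held no SAMR1 culture, so strain and array set cannot be fully told apart. Of the astrocyte markers, Gfap, Aqp4, Slc1a3, Gja1 and Aldoc were among 12 of 15 kept, while Slc1a2 and S100b were not detected in all arrays of any group. Of the microglia and macrophage markers, 12 of 15 were kept. Fewer microglia and less RNA per microglial cell cannot be told apart in such bulk samples.

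Values below are Z-normalized log2 intensities scaled to log2 units, in which 0 is the mean probe of the array, and differences are log2 fold changes from limma. Levels of different probes were not compared. Psma6, an alpha ring subunit, the thymus-specific core subunit Psmb11 and the core chaperone Psmg4 had no kept probe. A further probe each of Psma1, Psma3, Psmd5, Psmd9, Psmd11 and Psme4 was not kept.

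CR serum in SAMP8 astrocytes went with values above those of AL serum in every kept core probe, although no probe passed the test. The median log2 difference of the 17 core probes in P8CR-P8AL was 0.299, with a range of 0.085 to 0.613. Over all kept probes the median was 0.00971 and 52.2% lay above 0, and over the 1791 kept probes with a mean intensity over 1000, the range of most core probes, it was -0.0645. The 3 SAMP8-CR cultures all lay above the 3 SAMP8-AL cultures in 6 of the 17 core probes, against 11% of all kept probes. With each array scaled by its median alone the core median was 0.611 and that of all kept probes 0.156. That scaling leaves the spread of each array as it is, and the bright probes were not set beside the core under it. Taken as the brightest probe of each gene, all 14 core genes lay above 0, with a median of 0.282. No member was called at an adjusted p under 0.05 (0% of all kept probes were), while 3 core probes had an unadjusted p under 0.05 in the higher direction, against 3.52% of all kept probes.

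The core level of a culture, taken as the median over the core probes after subtracting each probe's mean over the 12 samples, was 0.13, 0.172 and -0.00534 in SAMP8-CR, against -0.107, -0.22 and -0.144 in SAMP8-AL. The 2 groups did not overlap. In SAMR1-CR it was 0.117, 0.0658 and -0.226, against 0.05, 0.184 and -0.0818 in SAMR1-AL, with overlap. The same level of the regulatory particle was 0.0899, 0.0892 and 0.0441 in SAMP8-CR, against -0.0305, 0.00161 and -0.0362 in SAMP8-AL, also without overlap, and the SD between replicates was 0.126 for the core and 0.0596 for the regulatory particle. Within the second array set, with 2 cultures a group, all 17 core probes lay above 0 in P8CR-P8AL (median 0.256). In the 1 culture a group of the first set 15 of 17 did (median 0.307). Between same-numbered cultures of replicates 1, 2 and 3 the core median was 0.307, 0.357 and 0.144. Of the 17 core probes 15, 16 and 13 lay above 0. The regulatory particle median was 0.0225, 0.0865 and 0.109 in the same order.

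**Figure D1:**
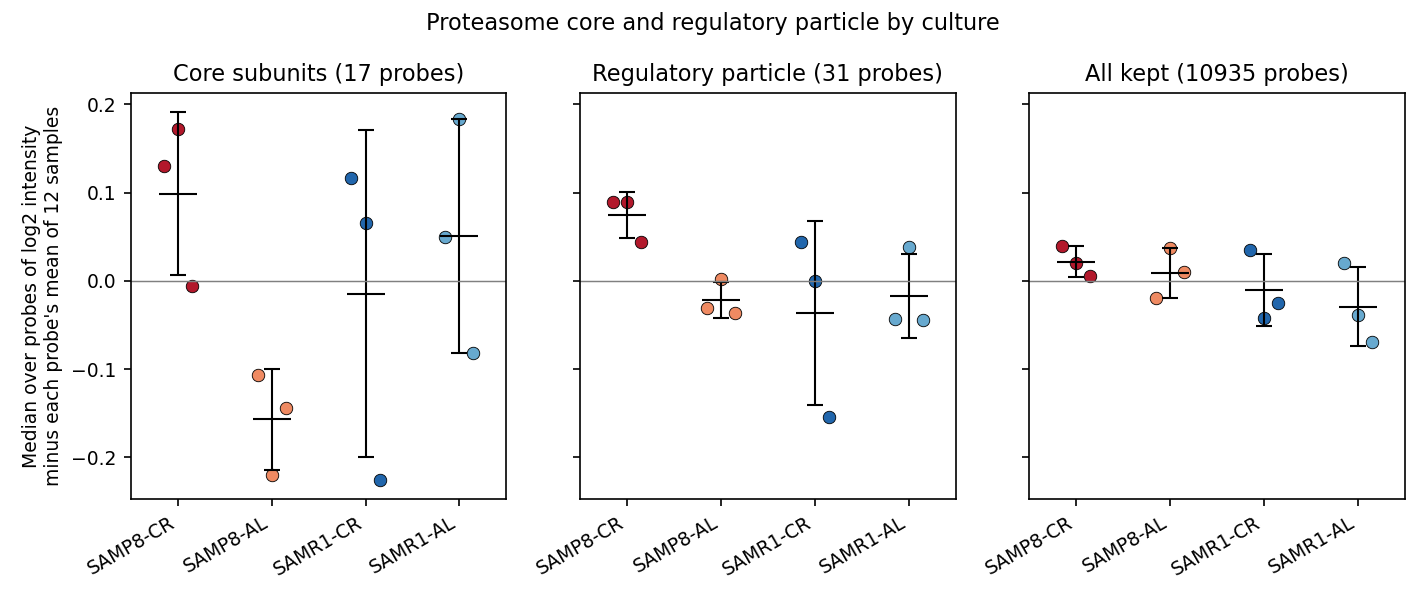
Core, regulatory particle and all kept probes in each culture: the vertical axis is the median over probes of normalized log2 intensity minus the probe's mean over 12 samples, points are cultures, and bars show the mean and SD of 3. The 3 SAMP8-CR cultures lie above the 3 SAMP8-AL cultures for the core and for the regulatory particle, while the SAMR1 groups overlap.

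Of the catalytic subunits, Psmb7, the trypsin-like site, had 2 kept probes. Its probe ILMN_1221340 read 4.22, 3.93 and 3.65 in SAMP8-CR, against 3.36, 3.29 and 3.31 in SAMP8-AL, a log2 difference of 0.61 (SE 0.235, adjusted p = 0.818 from limma). Its other probe ILMN_1233153 read 4.57, 4.05 and 4.32 in SAMP8-CR, against 4.02, 3.80 and 4.04 in SAMP8-AL (log2 difference 0.36, SE 0.205). On both probes every SAMP8-CR culture lay above every SAMP8-AL culture.

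Psmb5, the chymotrypsin-like site and the target of proteasome inhibitor drugs, read 2.50, 2.66 and 2.64 in SAMP8-CR, against 2.14, 2.40 and 2.05 in SAMP8-AL (log2 difference 0.40, SE 0.174, unadjusted p = 0.0365, adjusted p = 0.818 from limma). These cultures did not overlap either. Psmb6, the caspase-like site, read 4.51, 4.71 and 4.36 in SAMP8-CR, against 4.39, 4.14 and 4.26 in SAMP8-AL (log2 difference 0.27, 95% interval -0.182 to 0.713), and 1 SAMP8-AL culture lay within the SAMP8-CR range.

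**Figure D2:**
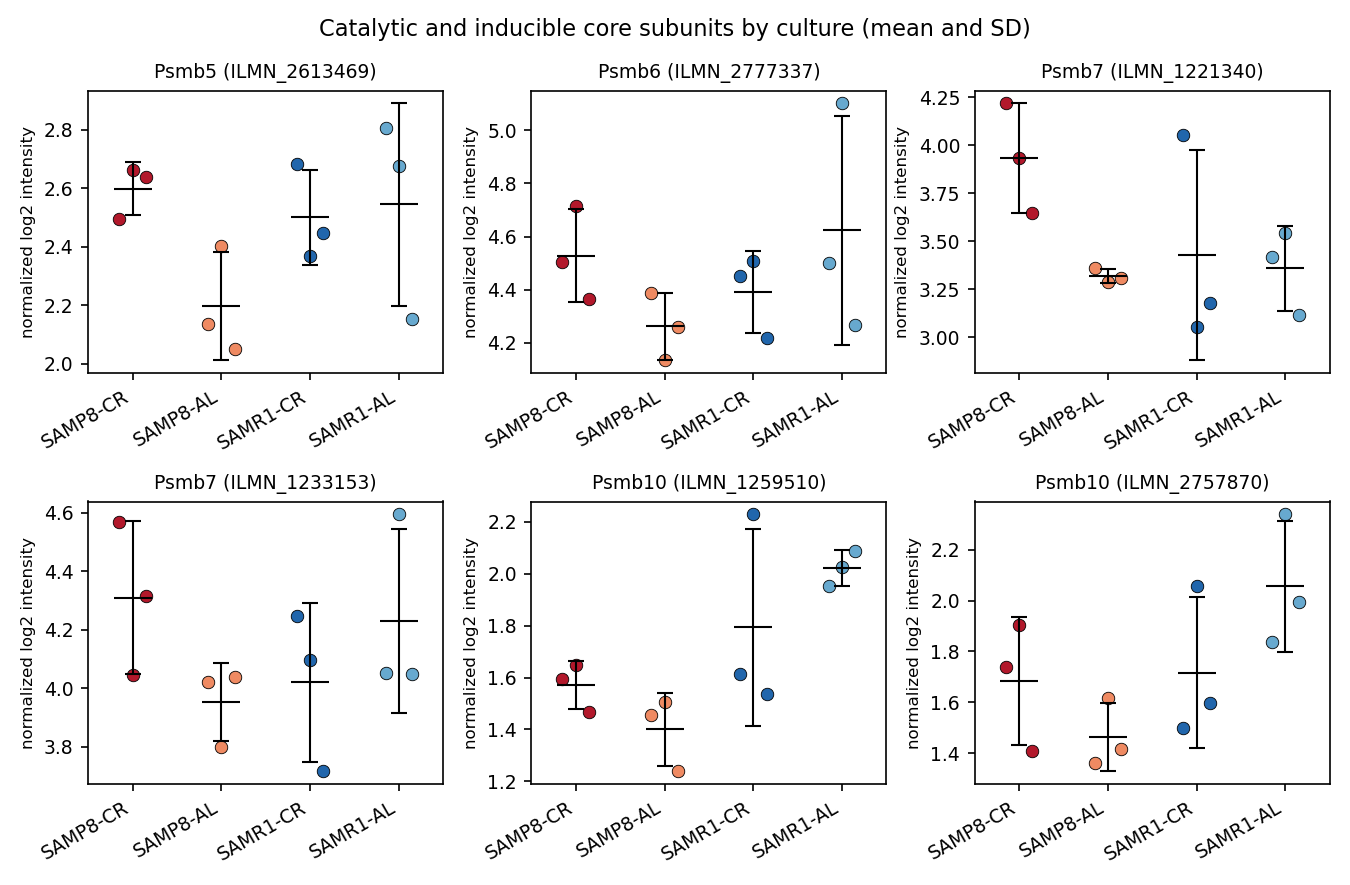
Catalytic subunits Psmb5, Psmb6 and Psmb7 and the inducible subunit Psmb10 in each culture: the vertical axis is the normalized log2 intensity of 1 probe, points are cultures, and bars show the mean and SD of 3. SAMP8-CR lies above SAMP8-AL without overlap for Psmb5 and both Psmb7 probes, and SAMP8-AL lies below SAMR1-AL for both Psmb10 probes.

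Of the 11 kept core genes with a RefSeq promoter window, Psmb5 and Psmb6 were the only ones whose window (GRCm38.p6, 250 bases before to 50 after the start) held the core of the antioxidant response element, TGACNNNGC, which Nfe2l1 and Nfe2l2 proteins bind. They are shown because the core is the set whose probes lay on 1 side together. The sequences run 5′ to 3′ on the strand of the gene, and capitals mark the match. The first base of the match lies 47 bases before the start of Psmb5 (chr14:54618013-54618063, minus strand) and 9 bases before that of Psmb6 (chr11:70525327-70525377, plus strand).
Psmb5: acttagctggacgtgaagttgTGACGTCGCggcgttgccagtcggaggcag
Psmb6: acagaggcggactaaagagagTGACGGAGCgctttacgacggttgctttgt
The table held windows for 34 of 40 kept member genes and not for Psmb1, Psmb2, Psmb7, Psmc3, Psmd3 and Psmd7. On either strand the motif was in 2 of 11 core genes (18.2%) and 4 of 20 regulatory particle genes (20%), Psmc6, Psmd9, Psmd12 and Psme4, against 14% of all 27025 genes in the table. The NF-Y box CCAAT was in 5 of 11 core genes (45.5%) and 6 of 20 regulatory particle genes (30%), against 41.1% of all genes, and it overlapped none of the 6 matches of TGACNNNGC.

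Among the other core subunits, Psma1 of the alpha ring, the gate of the barrel, read 3.20, 3.15 and 2.86 in SAMP8-CR, against 2.90, 2.51 and 2.72 in SAMP8-AL (log2 difference 0.36, SE 0.155, unadjusted p = 0.035), with 1 SAMP8-CR culture within the SAMP8-AL range. The 6 alpha ring probes had a median of 0.323, with Psma4 at 0.38 and Psma3 and Psma2 near 0 at 0.08 and 0.09. The structural beta subunits Psmb1 to Psmb4 had a median of 0.197 over 5 probes. The smallest of these was Psmb4 at 0.11 and the largest 1 probe of Psmb2 at 0.42. Psmg3, a chaperone of core assembly, read 0.68, 0.74 and 0.40 in SAMP8-CR, against -0.16, 0.24 and 0.14 in SAMP8-AL, a log2 difference of 0.53 (SE 0.19, unadjusted p = 0.014). Psmg1, another chaperone of core assembly, had a log2 difference of 0.24.

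The regulatory particle lay on both sides of 0 in the same comparison. Its 31 probes had a median of 0.0731, with 19 above 0, and the median was 0.0386 without SAMP8-CR replicate 2 and 0.0481 without SAMP8-AL replicate 3. In 8 of them all SAMP8-CR cultures lay above all SAMP8-AL cultures and in 2 all lay below (11% and 8.38% of all kept probes). Every kept probe of Psmd10 and of Psme1 was among those 8, so some genes are counted more than once. With the brightest probe of each gene the median was -0.00586 and 11 of 23 genes lay above 0. By role, the medians were 0.024 for the 8 probes of the ATPases, 0.0708 for the 11 of the lid, -0.195 for the 2 of the other base subunits, 0.342 for the 5 of the base chaperones and 0.152 for the 5 of the activators. The test of a difference between core and regulatory particle was not made, since the lists were chosen with results known.

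Psmd10, the base chaperone also called gankyrin, had 3 kept probes, all with SAMP8-CR above SAMP8-AL without overlap. Its probe ILMN_1239384 had the smallest p of any member here and read 0.17, 0.10 and 0.05 in SAMP8-CR, against -0.48, -0.28 and -0.43 in SAMP8-AL (log2 difference 0.51, SE 0.141, unadjusted p = 0.00287, adjusted p = 0.818 from limma). That probe was detected in 3 SAMP8-CR, 3 SAMP8-AL, 2 SAMR1-CR and 1 SAMR1-AL cultures. The other probes had log2 differences of 0.34 and 0.33. Psme2, the activator subunit, read 1.25, 1.32 and 0.88 in SAMP8-CR, against 0.31, 0.87 and 0.81 in SAMP8-AL (log2 difference 0.49, SE 0.21, unadjusted p = 0.0353). In the other direction, the ATPase Psmc6 had a log2 difference of -0.35 and the lid subunit Psmd3 one of -0.43, each without overlap.

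**Figure D3:**
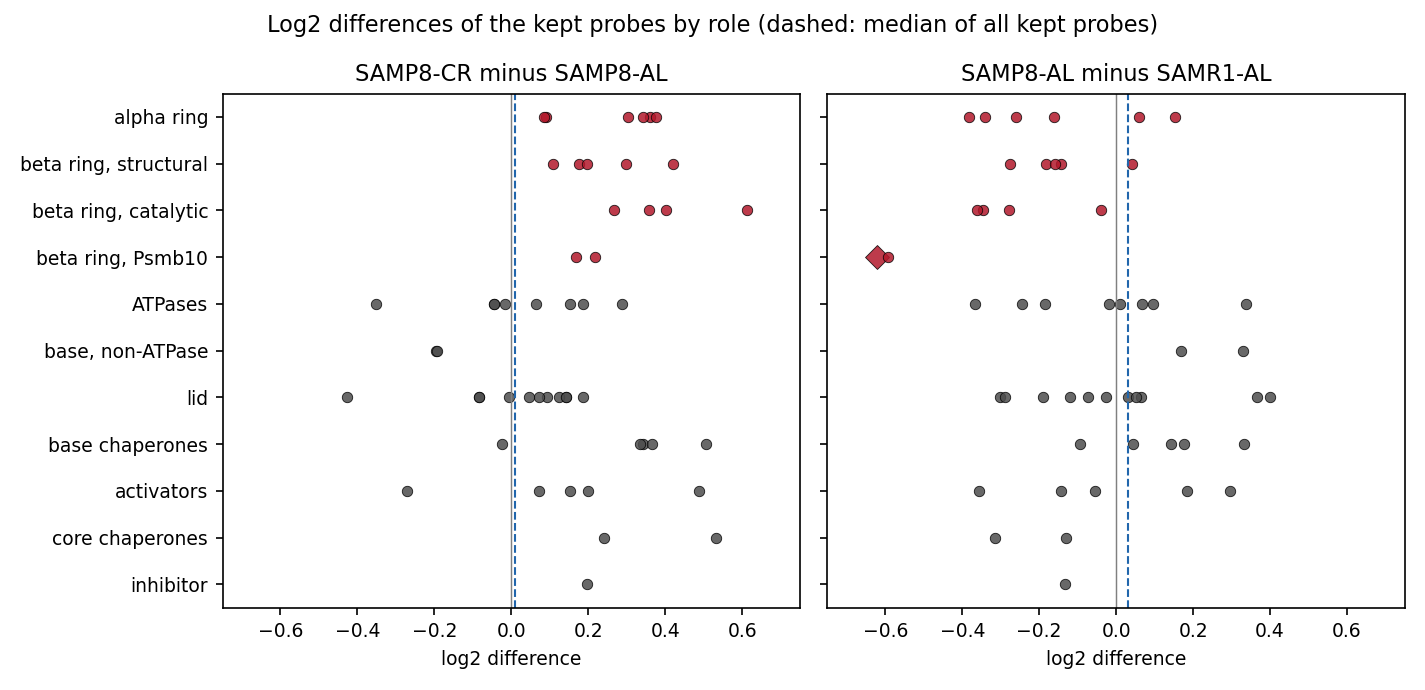
Log2 differences of the 51 kept probes by role, SAMP8-CR minus SAMP8-AL on the left and SAMP8-AL minus SAMR1-AL on the right: each point is a probe, red for the core, the diamond marks an adjusted p under 0.05 from limma, and the dashed line is the median of all kept probes. All 17 core probes lie above 0 on the left, and 14 of 17 lie below 0 on the right.

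Under the methods' own rule, a Z ratio with an unadjusted z test, 14 of 51 member probes passed in P8CR-P8AL, 12 of them higher, while 9.37% of all kept probes passed. The same rule gave 2 members in P8AL-R1AL (9.79% of all kept probes), 2 in P8CR-R1CR (7.59%) and 0 in R1CR-R1AL (2.01%).

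In AL serum, SAMP8 astrocytes had less Psmb10 than SAMR1 astrocytes, and most other core probes lay below 0 without passing. Psmb10, the inducible counterpart of Psmb7, read 1.46, 1.51 and 1.24 in SAMP8-AL on probe ILMN_1259510, against 1.95, 2.02 and 2.09 in SAMR1-AL. The groups did not overlap, and the log2 difference was -0.62 (SE 0.171, adjusted p = 0.0361 from limma). Its other probe, ILMN_2757870, read 1.36, 1.62 and 1.42 in SAMP8-AL, against 1.83, 2.34 and 2.00 in SAMR1-AL (log2 difference -0.59, SE 0.186, adjusted p = 0.0598). The 2 probes correlated with r = 0.855 over the 12 samples, which share arrays. ILMN_2757870 passed in 3 of the alternatives run (adjusted p 0.0163 to 0.0476 from limma). With the settings used throughout, ILMN_1259510 was the only member probe called, 1 of 51. Of all kept probes, 9.67% were called either way and 3.51% were called lower. The call was lost in 12 of the alternatives run (adjusted p 0.0508 to 0.495), each with a log2 difference below 0. Among them were the removal of any 1 SAMP8-AL or SAMR1-AL culture (-0.54 to -0.67, adjusted p 0.0527 to 0.135) or of SAMP8-CR replicate 2 (adjusted p = 0.0508), a block for the array set (-0.58, adjusted p = 0.136) and the first set alone (adjusted p = 0.495).

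The core as a whole had a median of -0.261 in P8AL-R1AL, with 14 of 17 probes below 0, against a median of 0.0321 and 45.1% below 0 among all kept probes and a median of -0.0713 among the bright ones. In 4 of 17 core probes, 2 of them of Psmb10, every SAMP8-AL culture lay below every SAMR1-AL culture (12.6% of all kept probes). Psma3, of the alpha ring, was another of these. It read 4.42, 4.46 and 4.64 in SAMP8-AL, against 4.78, 4.86 and 5.03 in SAMR1-AL (log2 difference -0.38, SE 0.17, adjusted p = 0.173). Without Psmb10 the core median was -0.183. It was -0.133 without SAMR1-AL replicate 2, a change of more than 1.5 times, -0.199 with a block for the array set, -0.21 in the first set and -0.0875 with each array scaled by its median alone, where all kept probes had a median of 0.0929.

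Psmb5 read 2.14, 2.40 and 2.05 in SAMP8-AL, against 2.81, 2.67 and 2.15 in SAMR1-AL (log2 difference -0.35, 95% interval -0.719 to 0.0249). Psmb6 had a log2 difference of -0.36 (95% interval -0.808 to 0.0859). The Psmb7 probes had -0.28 and -0.04, and the second of these (ILMN_1221340) changed sign under 6 alternatives. Psma7, Psmb1 and Psma5 were the core genes above 0, at 0.15, 0.04 and 0.06. P8CR-P8AL and P8AL-R1AL share the SAMP8-AL cultures, so that a low SAMP8-AL value moves both.

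The regulatory particle in P8AL-R1AL had a median of 0.0302 with 17 of 31 probes above 0 (54.9% of all kept probes). The sign of this median turned when replicate 3 of SAMR1-AL (-0.0259) or replicate 2 of SAMP8-AL (-0.00208) was left out, with quantile normalization (-0.00626), with normexp and quantile (-0.00591) and with the brightest probe of each gene (-0.0181). Psmd11 of the lid, which read 1.35, 1.22 and 1.13 in SAMP8-AL, against 0.90, 0.54 and 1.05 in SAMR1-AL, had the largest log2 difference, 0.40 (SE 0.156, adjusted p = 0.121). Psmd5, a base chaperone (0.33, adjusted p = 0.142), and Psmd2, a scaffold of the base (0.33, adjusted p = 0.168, detected in 2 of 3 SAMR1-AL cultures), also lay above without overlap. Psmc3, an ATPase (-0.37, adjusted p = 0.214), lay below without overlap. In all, 6 regulatory particle probes were higher and 3 lower without overlap, against 18.7% and 12.6% of all kept probes.

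The medians of the microglia and macrophage markers had the same signs as those of the core in P8AL-R1AL and P8CR-P8AL. Both comparisons share the SAMP8-AL cultures. In P8CR-R1CR the signs were opposite, with a core median of 0.155. The median log2 difference of the markers was -1.23 in P8AL-R1AL and -0.827 in P8CR-R1CR. In P8AL-R1AL 7 of 12 were called lower and 0 higher, against 3.51% and 6.15% of all kept probes. In P8CR-P8AL the median was 0.3, where 9 of 12 lay above 0 (52.2% of all kept probes) and none of the markers was called. Their summed intensity ranged from 11300 to 16000 in SAMP8-CR, from 9970 to 16300 in SAMP8-AL, from 20200 to 29100 in SAMR1-CR and from 17300 to 39200 in SAMR1-AL. The astrocyte markers had a median of 0.311 in P8AL-R1AL and -0.139 in P8CR-P8AL. The oligodendrocyte, neuron, fibroblast and meningeal, and endothelial markers had medians of 0.393, 0.0831, 0.565 and 0.269 in P8AL-R1AL and of -0.0227, 0.0125, 0.141 and 0.011 in P8CR-P8AL, over 5, 4, 10 and 3 kept genes. The part of these markers in the core and Psmb10 differences was not tested.

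With CR serum, the strains did not differ in any member at the threshold (0 of 51, against 2.8% of all kept probes). The core median in P8CR-R1CR was 0.155, with 12 of 17 probes above 0 (57.2% of all kept probes), and that of the regulatory particle 0.0804. Leaving out replicate 3 of SAMR1-CR gave 0.0479 and 0.0412, and leaving out its replicate 1 gave 0.297 and 0.199. The core median was 0.0652 without SAMP8-CR replicate 1, and that of the regulatory particle 0.122 without SAMR1-CR replicate 2. Psmc2, an ATPase, read 2.25, 2.10 and 2.27 in SAMP8-CR, against 1.82, 1.74 and 1.60 in SAMR1-CR, and had the smallest p (log2 difference 0.48, SE 0.142, adjusted p = 0.0924). Psmb10 read 1.59, 1.65 and 1.47 in SAMP8-CR, against 1.61, 2.23 and 1.54 in SAMR1-CR (log2 difference -0.22, adjusted p = 0.584), with 1 SAMR1-CR culture above all others. Psmb1, of the beta ring, had a log2 difference of 0.35 (SE 0.148, unadjusted p = 0.0332, adjusted p = 0.256). Regulatory particle probes higher without overlap numbered 9 of 31, and none was lower, against 11.6% and 8.41% of all kept probes.

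Over both sera, 4 member probes differed between the strains, 3 higher and 1 lower in SAMP8, or 4 of 51 where 15.6% of all kept probes were called (9.71% higher and 5.93% lower). Psmb10 (ILMN_1259510) fell by 0.42 (SE 0.121, adjusted p = 0.0296 from limma). Psmd11 rose by 0.36 (SE 0.11, adjusted p = 0.0408), with means of 1.32 in SAMP8-CR and 1.23 in SAMP8-AL, against 1.01 in SAMR1-CR and 0.83 in SAMR1-AL. The Psmd11 call was lost in 16 alternatives (adjusted p 0.0564 to 0.342), among them the removal of any 1 SAMP8 culture, of SAMR1-AL replicate 2 (0.29) or of SAMR1-CR replicate 2 or 3. The Psmb10 call was lost in 10 (adjusted p 0.0523 to 0.472), among them the removal of SAMR1-AL replicate 2 or 3, SAMP8-CR replicate 1 or 3 or SAMP8-AL replicate 3 (-0.38 to -0.43), and median scaling (-0.24).

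The remaining calls were of single probes of genes with another probe that read otherwise. For Psmc4, an ATPase, ILMN_1238082 read 0.68, 0.77 and 0.69 in SAMP8-CR and 0.63, 0.58 and 0.74 in SAMP8-AL, against 0.35, 0.26 and 0.35 in SAMR1-CR and 0.29, 0.43 and 0.22 in SAMR1-AL. Every SAMP8 culture lay above every SAMR1 culture (log2 difference 0.37, SE 0.0847, adjusted p = 0.00974). The other probe ILMN_2632349 had a log2 difference of -0.08 (adjusted p = 0.674). For Psmd7, a lid subunit that pairs with the deubiquitinase Psmd14, ILMN_1220284 rose by 0.44 (SE 0.125, adjusted p = 0.0275), while ILMN_2630438 had -0.11 (adjusted p = 0.615). The correlation of the 2 probes over the 12 samples was -0.302 for Psmc4 and -0.548 for Psmd7. The Psmc4 call was lost with the set as a block (adjusted p = 0.124) and in the first set (adjusted p = 0.322), and that of Psmd7 in 10 alternatives (adjusted p 0.0518 to 0.249), among them the removal of SAMR1-AL replicate 2, SAMP8-AL replicate 1 or 3 or SAMP8-CR replicate 1 or 2 (0.40 to 0.46) and median scaling (0.68). With the brightest probe of each gene only Psmd11 was called.

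**Figure D4:**
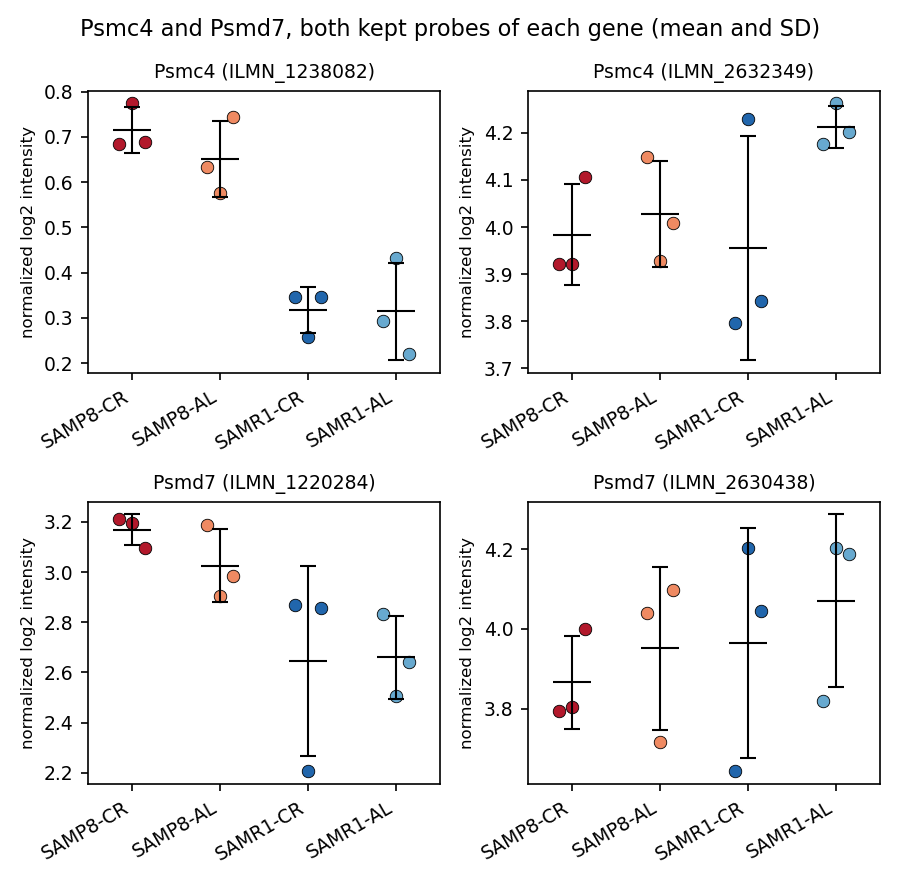
Both kept probes of Psmc4 and of Psmd7 in each culture: the vertical axis is the normalized log2 intensity of the probe named above each panel, points are cultures, and bars show the mean and SD of 3. For Psmc4 the SAMP8 groups lie above the SAMR1 groups on ILMN_1238082 and on ILMN_2632349 SAMP8-AL lies below SAMR1-AL while SAMR1-CR spans both SAMP8 groups.

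Of the 10 genes with several kept probes, the probes had the same sign in 5 in P8AL-R1AL, 9 in P8CR-R1CR, 6 in P8CR-P8AL and 7 over both sera. Psmd10 probes correlated with r of 0.783 to 0.945, those of Psmb7 with 0.61, Psmd6 with 0.578, Psme1 with 0.547, Psmb2 with 0.487, Psmc5 with 0.336 and Psmd13 with -0.451. Probes of 1 gene share the array and its scaling.

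In SAMR1 astrocytes, CR serum left no member past the threshold, nor any other probe (0%), and 0 of 51 member probes had an unadjusted p under 0.05 in limma (2.75% of all kept probes did higher and 0.658% lower). The core median in R1CR-R1AL was -0.0608, with 6 of 17 probes above 0 (53.9% of all kept probes), and the regulatory particle median was -0.0694. When replicate 2 of SAMR1-AL or replicate 3 of SAMR1-CR was left out, these became -0.0119 and -0.0178 for the core and 0.0241 and 0.0337 for the regulatory particle, and without SAMR1-CR replicate 1 the core median was -0.139. Psmd13 of the lid had the smallest p (log2 difference -0.40, SE 0.212, adjusted p = 0.999), and its second probe lay near 0. The Psmb10 probe ILMN_2757870 had a log2 difference of -0.34 (SE 0.186).

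The interaction term, P8CR-P8AL minus R1CR-R1AL, tests whether the serum difference depended on strain. It was above 0 in all 17 core probes, with a median of 0.388 and a range of 0.0789 to 0.568, against a median of -0.003 and 49.4% above 0 among all kept probes. None of these passed (adjusted p of 0.965 or more), none had an unadjusted p under 0.05 among the core probes (1.65% of all kept probes did above 0), and the 4 groups' cultures each enter this term. The terms were 0.45 for Psmb5 (95% interval -0.0807 to 0.971), 0.50 for Psmb6 and 0.54 and 0.57 for the Psmb7 probes. Psmg3 had the smallest p among members, with a term of 0.68 (SE 0.269, unadjusted p = 0.0246, adjusted p = 0.965). The regulatory particle had a median of 0.145, with 22 of 31 above 0 (0.08 when replicate 2 of SAMR1-AL was left out and 0.061 when replicate 3 of SAMR1-CR was). Over both strains, CR serum gave a core median of 0.0726 (0.0278 without SAMR1-AL replicate 1, 0.0343 without SAMP8-AL replicate 2, 0.154 without SAMR1-AL replicate 2, 0.148 without SAMR1-CR replicate 3 and 0.13 without SAMP8-CR replicate 2) and no call, and Psmd10 (ILMN_1239384) had the smallest p (log2 difference 0.37, adjusted p = 0.97).

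The kept probes of the interferon-inducible members Psmb10, Psme1 and Psme2 lay below 0 in P8AL-R1AL and above 0 in P8CR-P8AL, 2 comparisons that share the SAMP8-AL cultures, and only 1 Psmb10 probe passed, in P8AL-R1AL. In P8CR-P8AL the Psmb10 probes had log2 differences of 0.17 and 0.22. Psme1, the partner of Psme2 in the activator, had log2 differences of -0.14 and -0.05 in P8AL-R1AL and 0.20 and 0.15 in P8CR-P8AL for its 2 probes, and Psme2 had -0.36 in P8AL-R1AL. Of the excluded immunosubunits, Psmb8 had -0.17 in P8AL-R1AL (adjusted p = 0.333) and 0.17 in P8CR-P8AL. Psmb9 was detected in 1 SAMP8-CR and 0 SAMP8-AL cultures, against 2 SAMR1-CR and 3 SAMR1-AL cultures, and no fold is given for it. Of the 11 kept genes of the immunoproteasome and peptide loading list, H2-K1, a class I antigen-presenting molecule, fell by 1.03 in P8AL-R1AL (adjusted p = 0.0115). H2-D1, another, also passed, in the higher direction, but its probe was detected in 3 SAMP8-CR and 2 SAMP8-AL cultures, against 0 SAMR1-CR and 0 SAMR1-AL cultures, and was kept through SAMP8-CR alone, so no fold is given for it either. Taken as the brightest probe of each gene, the other 9 did not pass. For Psmb10 that probe was ILMN_2757870 (adjusted p = 0.0598 from limma), not the probe that passed.

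Of other genes of the pathway, Nfe2l2, a transcription factor that binds the antioxidant response element, read 1.80, 1.72 and 1.57 in SAMP8-AL, against 0.68, 0.12 and 0.46 in SAMR1-AL. It rose by 1.28 (SE 0.262, adjusted p = 0.00915 from limma). Keap1, which holds the Nfe2l2 protein for degradation by the proteasome, rose by 0.58 (adjusted p = 0.0238). These were 2 of 8 kept regulators of proteasome transcription, while 6.15% of all kept probes were called higher. None of the 8 was called lower. Nfe2l1, which was not called, read 4.93, 4.73 and 4.67 in SAMP8-AL, against 4.61, 5.17 and 4.94 in SAMR1-AL, with overlap. Ecpas, an adaptor of the proteasome, rose by 0.51 (adjusted p = 0.0471). It was the only 1 of 7 partners without the Psm name to pass. Among the other partners Sem1 had a mean of 4.76 in SAMP8-AL against 5.41 in SAMR1-AL, and Pomp 4.67 against 5.27. Both were lower without overlap (12.6% of all kept probes). Ube3c was higher without overlap, with means of 2.64 and 2.53 (18.7% of all kept probes). None of 5 genes of ubiquitin and its activation and none of 10 ubiquitin receptors, shuttles and p97 cofactors passed in P8AL-R1AL, and Sqstm1, a receptor of ubiquitinated cargo, rose by 0.50 over both sera (adjusted p = 0.0164). In P8CR-P8AL none of these genes passed. With CR serum Nfe2l2 read 1.29, 1.36 and 1.62 in SAMP8-CR, against 1.11, 0.09 and 1.39 in SAMR1-CR. The cultures of the strains overlapped there, as they did for Keap1. The alternatives were not run for the genes of this paragraph.

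Psmc1, an ATPase, varied among cultures of the same group more than any other member. It read 1.56, 2.23 and -0.39 in SAMP8-CR, 1.78, 1.93 and -0.77 in SAMP8-AL, 2.09, 1.78 and 1.96 in SAMR1-CR and 2.27, -0.43 and 1.84 in SAMR1-AL. Replicate 3 of SAMP8-CR and of SAMP8-AL and replicate 2 of SAMR1-AL stood apart below the other 9 cultures, and the means of those 3 groups lie between their cultures.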

How the data were processed

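RNA of 12 astrocyte cultures, 3 in each of 4 groups, was hybridised to Illumina MouseRef-8 v1.1 bead arrays, and the study's methods describe the 3 as independent experiments. The authors deposited, per probe and array, a raw bead intensity on a linear scale and a detection p-value. They also deposited a score, the Z value of log10 intensity within each array, which was recomputed from the intensities with a largest difference of 5e-10. Image analysis software and background handling are not given in the sources used here. The array's platform annotation gave 1 gene symbol for 20984 of the 24613 probes, several for 1 and none for 3628.

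Intensities were taken to log2, each array was centred on its mean and divided by its SD, and the result was multiplied by the average SD over the 12 arrays, which puts differences on the log2 scale. A probe was tested where all arrays of 1 or more groups had a detection p under 0.05. A single limma model with a term for each of the 4 groups was fitted to all 12 samples (lmFit, then eBayes with trend, two-sided), with Benjamini-Hochberg adjustment over all 10935 kept probes and a threshold of 0.05. The 7 contrasts are named as the first group minus the second, such as P8CR-P8AL for SAMP8-CR minus SAMP8-AL. Lists were described by counts and medians with no test over a list. R 4.3.3, limma 3.58.1, Python 3.11.15 and matplotlib 3.10.9 were used, and the fit was tested on simulated data. The members, the gene lists and the tests were chosen with earlier results of these data known.

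Named genes are members past the threshold in any contrast, the 5 members with the smallest p in each contrast, the catalytic subunits, Psmb10 and the activators Psme1 and Psme2, members with several kept probes, and at most 4 genes past the threshold in each other list. Core genes and genes standing apart from their group that are named beyond this rule were chosen after their values were seen. So were Sem1, Pomp, Ube3c and Nfe2l1. Same-numbered samples deviated together in SAMP8-CR with SAMP8-AL (r = 0.383, 0.439 and 0.116 over kept probes) and in SAMP8-CR with SAMR1-CR (r = 0.366, 0.191 and 0.327), as far as the data show. In each of the other 4 group pairs at least 1 same-numbered pair was under 0.1, among them SAMR1-CR with SAMR1-AL (r = 0.572, 0.0925 and 0.13). Over all group pairs, 10 of 18 same-numbered and 7 of 36 differently numbered pairs were over 0.1. Alternatives were 10 samples (without replicate 1 of SAMR1-AL and of SAMP8-AL), each sample left out, a replicate block, 3 other normalizations, 2 other detection filters, the array set as a block or 1 set alone, no trend, and the methods' Z ratio with z test. The other gene lists were the excluded immunosubunits, proteasome partners without the Psm name, ubiquitin and its activation, ubiquitin receptors, shuttles and p97, regulators of proteasome transcription, immunoproteasome and peptide loading, and markers of astrocytes, microglia, oligodendrocytes, neurons, fibroblasts and endothelium. The brightest probe per gene, the core without Psmb10 and the bright probes as a second background were added after seeing the data. A setting that left out 2 SAMR1 samples together was run and is not reported, since they had been picked by their core values. Promoter sequences were taken from RefSeq (GRCm38.p6).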

Additional observations from a re-analysis of the deposited data

How the results depend on the processing

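The core median kept its sign in P8CR-P8AL (0.219 without a detection filter to 0.611), in P8AL-R1AL and in the interaction under every alternative run for it. Leaving out each culture in turn gave core medians of 0.22 to 0.355 in P8CR-P8AL, -0.28 to -0.133 in P8AL-R1AL, 0.0479 to 0.297 in P8CR-R1CR, 0.26 to 0.449 for the interaction, -0.139 to -0.0119 in R1CR-R1AL (0.042 with array median scaling) and 0.0278 to 0.154 for the sera over both strains. The regulatory particle gave -0.0259 to 0.0583 in P8AL-R1AL, 0.0412 to 0.199 in P8CR-R1CR, -0.0694 to 0.0337 in R1CR-R1AL and 0.061 to 0.189 for the interaction. With each culture left out in turn, 0 to 2 members were called in P8AL-R1AL, where 432 to 1359 of all kept probes were. Over both sera 1 to 6 members were called (1224 to 1911 of all kept probes), and in P8CR-R1CR 0 to 1 (171 to 355).
Scaling by the array median alone moved all kept probes (median 0.156 in P8CR-P8AL, 0.0929 in P8AL-R1AL, 0.223 in P8CR-R1CR, 0.162 for the strains over both sera, 0.109 for the sera over both strains). With it the core medians were 0.611 in P8CR-P8AL, -0.0875 in P8AL-R1AL, 0.53 in P8CR-R1CR, 0.237 for the strains, 0.347 for the sera and 0.589 for the interaction. Those of the regulatory particle were 0.358, 0.141, 0.415, 0.254, 0.18 and 0.308 in the same order, and 0.0236 in R1CR-R1AL. No median of the bright probes was taken under median scaling. The regulatory particle interaction was 0.085 with 10 samples and 0.0372 in the first array set. With the brightest probe of each gene, chosen after seeing the data as was the core without Psmb10, the regulatory particle gave -0.00586 in P8CR-P8AL and 0.0186 in P8CR-R1CR.
In P8AL-R1AL, where 1057 of all probes were called, 0 members were called with 10 samples (514 of all probes), array median scaling (367), no detection filter (825), the array set as a block (621), the first set alone (87) or 1 probe per gene, and 2 with the methods' Z ratio and z test. That rule gave 14 in P8CR-P8AL and 2 in P8CR-R1CR. Over both sera, where 1710 of all probes were called, 2 members were called with 10 samples (1619 of all probes), 1 with array median scaling (1177), without a detection filter (1576) or with 1 probe per gene, and 0 with the set as a block (870) or in the first set (436). The replicate number as a block gave 2 calls in P8AL-R1AL (1372 of all probes) and 6 over both sera (2025), and 0 in every other contrast, as without it. The Psmb7 probe ILMN_1221340 changed sign in P8AL-R1AL with quantile normalization (0.0105), normexp with quantile (0.0112), array median scaling (0.103), the array set as a block (0.124), the first set alone (0.0012) and without SAMR1-AL replicate 2 (0.0523, the other end of the leave-one-out range being -0.163). The Psme1 probe ILMN_2671204 did so with array median scaling (0.0548). The causes were not tested.
The precision rests on 3 cultures a group. The Psmd10 probe ILMN_1239384 was not detected in every culture, so its SAMR1 values lie near the background. Its SAMP8-AL mean of -0.40 lay below the SAMR1-CR mean of -0.31, although all 3 SAMP8-AL cultures detected it.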
